A study of Mus musculus with 2 samples.

Results

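The cells described here are the neutrophils in single-cell suspensions of mouse spleen that had been enriched with magnetic beads against F4/80, a surface protein of macrophages encoded by Adgre1. They were chosen by their own transcripts. A barcode was taken when it held 500 to 5000 detected genes and under 15% mitochondrial UMIs (unique molecular identifiers, the tags that count single mRNA molecules), at least 10 UMIs of S100a8 and S100a9 together, at least 3 of the 9 genes Ngp, Camp, Ltf, Lcn2, Mmp8, Mmp9, Retnlg, Ly6g and Cxcr2, and at most 1 of the 3 progenitor genes Mpo, Elane and Prtn3. By this rule 282 of 31699 kept barcodes were neutrophils. Of these, 272 were among the 19419 kept barcodes of the library labelled wild-type, a share of 1.40% (exact 95% binomial interval 1.24 to 1.58%), and 10 were among the 12280 of the library labelled SCD, a share of 0.0814% (0.0391 to 0.150%). The values of these 14 genes chose the cells and are given as a description only.

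The study compared the spleens of mice with sickle cell disease (SCD), in which red cells break down and release heme, with those of control littermates, and each library came from the spleen of 1 mouse aged 12 to 16 weeks that had received no treatment. The mouse labelled SCD was homozygous for Hbatm1Paz and Hbbtm1Tow, deletions of the mouse α- and β-globin genes, and for Tg(HBA-HBBs)41Paz, a transgene with human α-globin and sickle β-globin. The mouse labelled wild-type was a littermate homozygous for Hbatm1Paz, heterozygous for Hbbtm1Tow and hemizygous for the transgene, and did not sickle, so that it too lacked the deleted α-globin alleles and carried the transgene. Red cells were lysed before enrichment, and the libraries were made with 10x Genomics 3′ v3.1 reagents. With 1 mouse per genotype no test between the libraries or between sets of cells was possible. All intervals below cover counting error only, and genotype, mouse and library cannot be told apart.

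Mouse globin transcripts went against the labels. Over all kept cells, Hbb-bs stood at 57.0 CPM (UMIs summed over cells and scaled to a total of 1000000) in the library labelled wild-type, whose label gives 1 intact Hbb allele, and at 10551 CPM in the library labelled SCD, whose label gives none. Hba-a1 stood at 10915 and 3531 CPM although both labels give the gene as deleted. The libraries are therefore named by their labels only. Depth was 145953464 UMIs over 24144 barcodes for the first library and 73986356 UMIs over 15442 barcodes for the library labelled SCD. The libraries shared 107 barcodes, and 3 of the 272 neutrophil barcodes of the library labelled wild-type also occurred in the other library, none of them as a neutrophil there.

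Neutrophils are short-lived granulocytes made in the bone marrow, and in mice also in the spleen. Their granules are filled in sequence as the cells mature. Primary granule proteins such as myeloperoxidase are made by promyelocytes, secondary granule proteins such as lactoferrin by dividing myelocytes and their non-dividing progeny, and gelatinase granule proteins later still, while receptors for chemokines and G-CSF mark the mature cell. The transcription factor C/EBPε is needed for the secondary granule genes.

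The 3 secondary granule genes that order the cells below, Camp (the cathelicidin antimicrobial peptide), Ngp (neutrophilic granule protein) and Ltf (lactoferrin), lie on mouse chromosome 9 (GRCm38) at chr9:109847379-109849617 on the minus strand, chr9:110419747-110423012 on the plus strand and chr9:111019271-111042767 on the plus strand, with 570 kb between Camp and Ngp and 596 kb between Ngp and Ltf. S100a8 and S100a9, which encode the calcium-binding alarmin calprotectin, lie 22.6 kb apart on chromosome 3, at chr3:90668978-90670035 and chr3:90692632-90695721. Because these genes were among those whose level in the neutrophils exceeded that in other cells the most, the upstream sequences of 4 of them are shown, 5′ to 3′ on the strand of the gene, from RefSeq (GRCm38.p6). Each runs over at most 250 bases and ends before the first annotated start of the gene. Capitals mark matches to the letters TTGCNNAA, a core that C/EBP factors can bind, on either strand.

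S100a9, chr3:90695722-90695971, minus strand: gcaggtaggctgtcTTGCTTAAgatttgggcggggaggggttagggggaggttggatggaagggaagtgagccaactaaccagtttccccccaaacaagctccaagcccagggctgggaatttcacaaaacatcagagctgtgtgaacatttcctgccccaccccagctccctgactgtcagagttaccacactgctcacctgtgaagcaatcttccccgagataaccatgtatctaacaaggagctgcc
Camp, chr9:109849618-109849706, minus strand: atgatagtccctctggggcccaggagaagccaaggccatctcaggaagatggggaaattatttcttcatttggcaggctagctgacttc
Ngp, chr9:110419558-110419746, plus strand: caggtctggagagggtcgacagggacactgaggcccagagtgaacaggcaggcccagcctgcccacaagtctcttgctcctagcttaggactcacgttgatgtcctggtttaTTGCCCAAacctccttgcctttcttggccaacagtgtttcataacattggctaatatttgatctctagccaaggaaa
Ltf, chr9:111019042-111019270, plus strand: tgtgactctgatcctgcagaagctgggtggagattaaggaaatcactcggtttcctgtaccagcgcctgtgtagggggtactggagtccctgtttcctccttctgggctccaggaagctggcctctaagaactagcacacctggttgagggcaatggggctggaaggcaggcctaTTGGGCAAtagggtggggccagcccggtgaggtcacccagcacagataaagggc

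Of the 16 genes looked up, 14 had a promoter in the table, and Mmp9 and Cebpe had no entry. In the 250 bases before the RefSeq start, 7 of the 14 held TTGCNNAA (Lcn2, S100a9, Mmp8, Ngp, Ltf, Ly6g and Retnlg), against 9.56% of all 32851 promoters over the same window. The first base of the match lay 236 bases before the start of S100a9, 138 and 11 bases before that of Ngp, and 75 bases before that of Ltf. The second match of Ngp lies outside the stretch printed. The letters GAGGAA, the core of sites of the myeloid factor PU.1, were in 10 of the 14 and in 23.3% of all promoters. Both patterns were searched on both strands, no base can belong to a match of both, and a match is a description of letters, not of binding.

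In the library labelled wild-type the 272 neutrophils held 1945346 UMIs in all, with 824 to 20788 UMIs per cell (median 6159) and 502 to 4767 detected genes (median 2118). Their median mitochondrial share was 4.51%, against 8.47% over all kept cells. S100a8 and S100a9 together took from 10 to 4082 UMIs of a cell (median 760.5), which was 0.249 to 28.2% of its UMIs (median 13.2%). Only 6 cells held between 10 and 19 of these UMIs, just inside the rule, and 1 barcode that met every other part held between 5 and 9. Exactly 3 of the 9 genes were detected in 9 neutrophils, and 7 further barcodes that met every other part held exactly 2. The limit on progenitor genes was the part with most cells near it, since 31 neutrophils held exactly 1 of Mpo, Elane and Prtn3 and 17 barcodes with 2 or 3 of them met every other part. These 17 had a median of 12132 UMIs and 9.56% of UMIs in S100a8 and S100a9, and were left out.

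**Figure D1:**
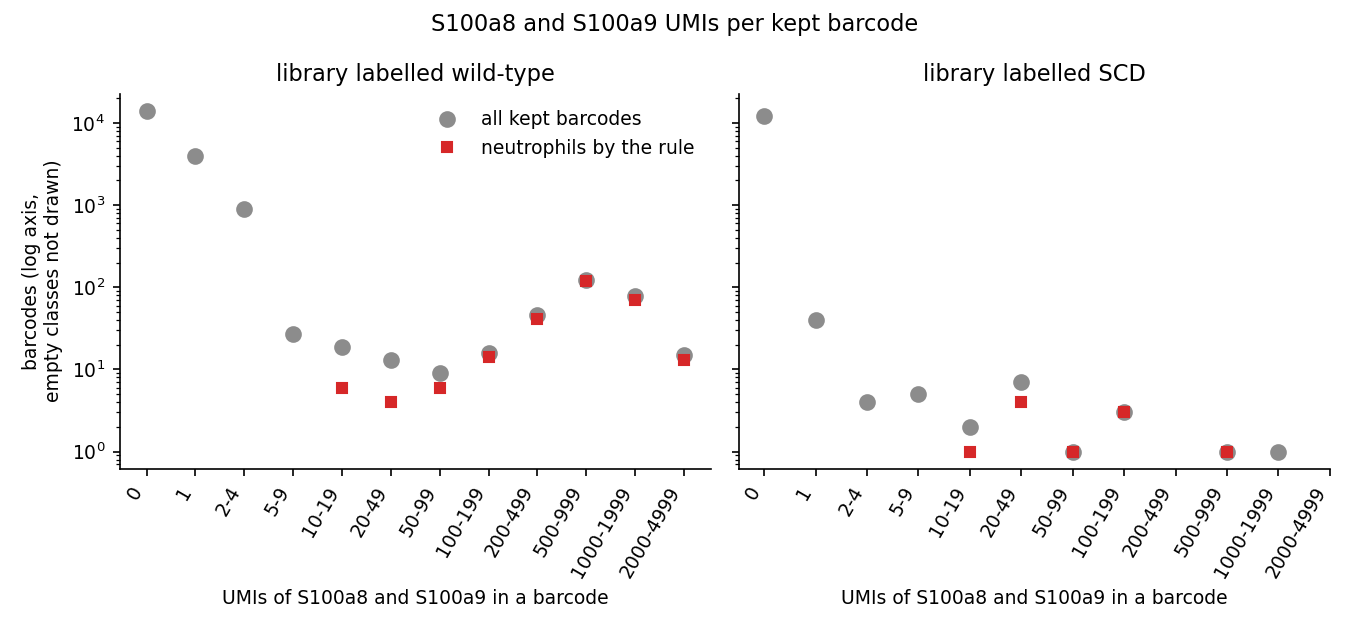
Number of kept barcodes (y axis, log scale) by the number of S100a8 and S100a9 UMIs in a barcode (x axis, classes) in the library labelled wild-type (left) and the library labelled SCD (right); grey circles are all kept barcodes and red squares those that met the whole rule. In the library labelled wild-type the barcodes fall into a low part and a high part with its peak at 500 to under 1000 UMIs, where 118 of 122 barcodes met the rule. Of the neutrophils in the library labelled SCD 1 stands in that class.

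Outside the neutrophils, S100a8 or S100a9 was found in the library labelled wild-type in 4933 of 19147 kept cells (25.8%, 25.1 to 26.4%), of which 46 held 10 or more UMIs. The library labelled SCD had it in 54 of 12270 (0.440%, 0.331 to 0.574%). Levels in neutrophils were therefore read beside those of B cells of the same library, chosen by B-cell genes such as Cd79a, Cd79b and Ms4a1, which should lack granulocyte transcripts. Granulocyte-monocyte progenitors (by Mpo, Elane and Prtn3) and Ly6c-high monocytes (by Ly6c2, Ccr2, Fn1, F13a1 and Vcan) were the nearest other cells. There were 764 B cells, 66 progenitors and 1069 monocytes. Of the B cells 1 held 10 or more UMIs of S100a8 and S100a9, and without it their S100a8 stood at 32.5 in place of 357 CPM. Of the progenitors 22 did, and the remaining 44 stood at 73.7 in place of 8522 CPM.

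Transcripts of the secondary granules and of the calprotectin genes were the most abundant in the neutrophils. S100a9 stood at 60103 CPM (59759 to 60449) and S100a8 at 57634 CPM (57298 to 57973), against 137 and 134 CPM in the other kept cells. Ngp stood at 44909 CPM (44612 to 45208), Camp at 21168 CPM (20964 to 21374), Ltf at 12527 CPM (12370 to 12686) and Lcn2, which encodes the siderophore-binding lipocalin 2, at 8928 CPM (8796 to 9062). UMIs at the 3′ end count molecules, so these levels are not scaled by gene length. The 15 genes with the highest level also held Chil3, which encodes the chitinase-like protein Ym1, the actin-binding thymosin gene Tmsb4x, the actin gene Actb, Lyz2 (lysozyme), 4 mitochondrial genes and Hba-a1. Ngp was found in 92.6% of the cells, Camp in 91.9% and Ltf in 91.5%.

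Among genes with at least 100 UMIs, 325 of 12325 (2.64%) were at least 4-fold higher in neutrophils than in the other kept cells, and 594 (4.82%) were at least 4-fold lower, with a median log2 ratio of −0.52 over all of them. The 5 secondary granule genes that the rule did not use were all among the higher ones, namely Cd177, a surface receptor of neutrophils, at 1245 CPM (1195 to 1295), Chil3 at 10071 CPM (9930 to 10213), Pglyrp1, a peptidoglycan-binding protein, at 1651 CPM (1594 to 1709), Hp (haptoglobin) at 723 CPM (685 to 762) and Olfm4 at 169.6 CPM (152 to 189). In the other kept cells these 5 stood at 16.9, 137, 43.1, 47.7 and 0.759 CPM. Against the progenitors only Cd177 and Pglyrp1 of these 5 were at least 4-fold higher, and against the Ly6c-high monocytes all but Hp. Of all genes measured in these 2 comparisons 2.26% and 2.1% were. Chil3 stood at 2642 CPM in the progenitors, 995 CPM in those under 10 UMIs of S100a8 and S100a9, and 926 CPM in the monocytes. Olfm4 (olfactomedin 4) was found in 6.99% of the neutrophils, against 91.2% for Chil3, 89.7% for Cd177, 95.2% for Pglyrp1 and 91.5% for Hp.

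Of the gelatinase granule genes, Mmp8 and Mmp9 (neutrophil collagenase and gelatinase B) are rule genes and stood at 744 CPM (706 to 783) and 515 CPM (483 to 547). Mmp25, a membrane-bound metalloproteinase that the rule did not use, stood at 135 CPM (119 to 153) against 21.1 CPM in the other kept cells, and Adam8, likewise outside the rule, at 50.9 CPM (41.4 to 61.96) against 32.5 CPM. Mmp8 was found in 36.0% and Mmp9 in 56.6% of the cells, with a median of 0 and 1 UMIs per cell.

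Primary granule genes were low. Mpo, Elane and Prtn3, which the rule limits, stood at 2.06, 4.63 and 16.4 CPM against 1802, 1377 and 1595 CPM in the progenitors, a difference that both rules built in. Outside the rule, no UMI of Ctsg (cathepsin G) was found in the neutrophils, which allows up to 1.54 CPM, against 138 CPM in the progenitors, at least 89.7-fold higher. Other members of the list were present. Ctsc was the most abundant at 210 CPM, against 587 CPM in the other kept cells. The serine protease gene Prss57 stood at 20.05 CPM (14.3 to 27.4) and Ms4a3 at 42.7 CPM (33.98 to 52.9), against 1.46 and 1.07 CPM in the other kept cells. Of 6 genes measured against the progenitors 4 (Mpo, Elane, Prtn3 and Ctsg) were at least 4-fold lower, and none stood higher. Of all 7 genes 2 were at least 4-fold higher than in the other kept cells and 1 (Mpo) was lower.

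The 20 genes with the largest ratio to the other kept cells were led by the rule genes Ly6g and Retnlg, given as a description. Ly6g, which encodes the antigen by which mouse neutrophils are usually sorted, stood at 395 CPM (367 to 424) against 0.199 CPM. Retnlg (resistin-like γ) stood at 647 CPM (612 to 684) against 0.465 CPM. Ly6g had no UMI in the progenitors and B cells. Itgb2l, a β2-like integrin chain, stood at 334 CPM (308 to 360.3) against 0.579 CPM, and Wfdc21, a secreted protein with a protease-inhibitor domain, at 3195 CPM (3116 to 3276) against 7.69 CPM. Inhba (activin A) at 231 CPM (209.9 to 253), Hdc (histidine decarboxylase, which makes histamine) at 209 CPM (189 to 230.0), Lrg1 (a secreted leucine-rich glycoprotein) at 333 CPM (308 to 359.8) and Orm1 (the acute-phase protein orosomucoid) at 124 CPM (109 to 141) were each under 2 CPM in the other kept cells. The rest, beside the further rule genes S100a8, S100a9, Ngp, Camp, Ltf and Lcn2, were AA467197, Ankrd22, Slco4c1, Olfml2b, 4930438A08Rik and 9830107B12Rik, at 62.7 to 357 CPM. At the other end, the 10 smallest ratios belonged to genes with at most 7 UMIs in all neutrophils. They included Spib, a transcription factor of B cells and plasmacytoid dendritic cells, with 1 UMI against 16.2 CPM in the other kept cells, Igha, and the heat-shock genes Hspa1a and Hspa1b at 1.03 and 3.60 against 27.7 and 72.6 CPM.

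Of 14 transcription factors 4 were at least 4-fold higher than in the other kept cells. Cebpe stood at 587 CPM (553 to 622) against 2.69 CPM, and was found in 80.5% of the neutrophils. Gfi1, a repressor needed for neutrophil formation, stood at 43.2 CPM (34.4 to 53.5) against 1.18 CPM, Cebpd at 157 CPM (139.7 to 175) against 28.9 CPM and Myb, a factor of dividing progenitors, at 67.9 CPM (56.8 to 80.5) against 9.85 CPM. Against the progenitors, where 102 of 4512 measured genes (2.26%) were at least 4-fold higher in the neutrophils and 86 (1.91%) lower, Cebpe and Mxd1 were higher and Irf8, which favours monocytes and dendritic cells, was lower, at 138 against 638 CPM. Gfi1 did not differ to that extent, at 43.2 and 47.7 CPM. Myc stood at 3.08 CPM with 6 UMIs in all.

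The machinery of the oxidative burst was well represented. Cybb, the catalytic subunit of the phagocyte NADPH oxidase, stood at 3123 CPM (3045 to 3202), and of its partners Cyba stood at 813 CPM (773 to 854), Ncf1 at 936 CPM (893 to 979.6) and Ncf4 at 258 CPM (235 to 281). Of the 7 genes of this list 4 (Cybb, Ncf1, Ncf4 and Rac2) were at least 4-fold higher than in the other kept cells, with a median log2 ratio of 2.01. None of the 7 was so against Ly6c-high monocytes, where Cybb stood at 2407 and Ncf1 at 241 CPM and where 2.1% of 7960 measured genes were higher in the neutrophils and 4.16% lower. Of the genes that make leukotriene B4, a chemoattractant of neutrophils, Alox5 stood at 103 CPM (89.5 to 119) and Lta4h at 498 CPM (467 to 530.0) against 1.32 and 46.8 CPM in the other kept cells, and Alox5ap at 529 CPM (498 to 563) against 171. Its receptor gene Ltb4r1 stood at 274 CPM (251 to 298) against 9.84 CPM. Alox5, Lta4h and Ltb4r1 were at least 4-fold higher against Ly6c-high monocytes as well, whereas Alox5ap stood higher in the monocytes, at 946 CPM.

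Of 9 measured chemoattractant receptors 5 were at least 4-fold higher than in the other kept cells, namely the rule gene Cxcr2 (a receptor of CXC chemokines) at 173 CPM (155 to 193), Fpr2 (a formyl peptide receptor) at 501 CPM (469.7 to 533), C5ar1 (complement C5a) at 101 CPM (87.1 to 116), Ltb4r1, and Ccr1 at 81.7 CPM (69.5 to 95.5). Cxcr4, which holds developing neutrophils in the marrow, stood at 196 CPM (177 to 217) against 58.7 CPM. The G-CSF receptor gene Csf3r stood at 133 CPM (117 to 150.4) against 34.9 CPM. Its log2 ratio was 1.93, and 2.90, past 4-fold, with means of per-cell values. With summed UMIs none of the 5 receptors of growth factors passed 4-fold. None did against progenitors (4 measured) or Ly6c-high monocytes (5 measured), where the largest log2 ratios were 0.73 and 0.21. After thinning Csf3r was in 16.2% of neutrophils and 12.0% of monocytes. Of 19 adhesion and recognition genes 6 were at least 4-fold higher than in the other kept cells. They were the rule gene Ly6g, and Itgam, Itgb2l, Trem1, Trem3 and Ceacam1, with Itgam, the αM chain of Mac-1, at 471 CPM (441 to 503). Against the monocytes 3 of 18 measured were (Ly6g, Itgb2l and Trem3), and Clec7a was at least 4-fold lower.

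The cytokine list summed to 321 CPM in the neutrophils, against 368 in the other kept cells, 142 in B cells and 170 in progenitors. Its most abundant gene was Ccl6, at 135 CPM (119 to 152) against 286 in the other kept cells. Cxcl1 had no UMI, Tnf stood at 19.02 CPM (13.4 to 26.2), and Il1b stood at 64.8 CPM (53.96 to 77.1) but was found in 8.09% of the cells. Of 12 measured cytokine genes 3 were at least 4-fold higher than in the other kept cells, and 2 of these encode antagonists of interleukin 1, Il1rn at 39.6 CPM (31.2 to 49.5) and the decoy receptor gene Il1r2 at 23.6 CPM (17.3 to 31.5), beside Tnfsf14 at 11.3 CPM (7.09 to 17.1). Among the protease inhibitors, Serpinb1a, which blocks neutrophil elastase and cathepsin G, stood at 458 CPM (428 to 489) against 10.6 CPM, and the stefin A genes Stfa1, Stfa2l1 and Stfa3 had 4, 16 and 6 UMIs. Of 14 interferon-response genes 3 were at least 4-fold higher and 1 lower. The higher ones were Ifitm6 at 1026 CPM (982 to 1072), Slfn4 at 109 CPM (95.3 to 125) and Slfn1 at 78.1 CPM (66.2 to 91.6), all of them known from myeloid cells, while Ifit1, Ifit3, Irf7 and Oasl2 stood at 5.65, 1.54, 12.3 and 13.9 CPM, each below the other kept cells. Of 9 survival genes 3 were at least 4-fold lower (Bcl2, Bcl2a1a and Bcl2a1d) and none higher. Mcl1, on which neutrophils depend, was the most abundant of them at 292 CPM (268 to 317). The Bcl2a1 genes are close copies that may share reads, so their values are uncertain.

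**Figure D2:**
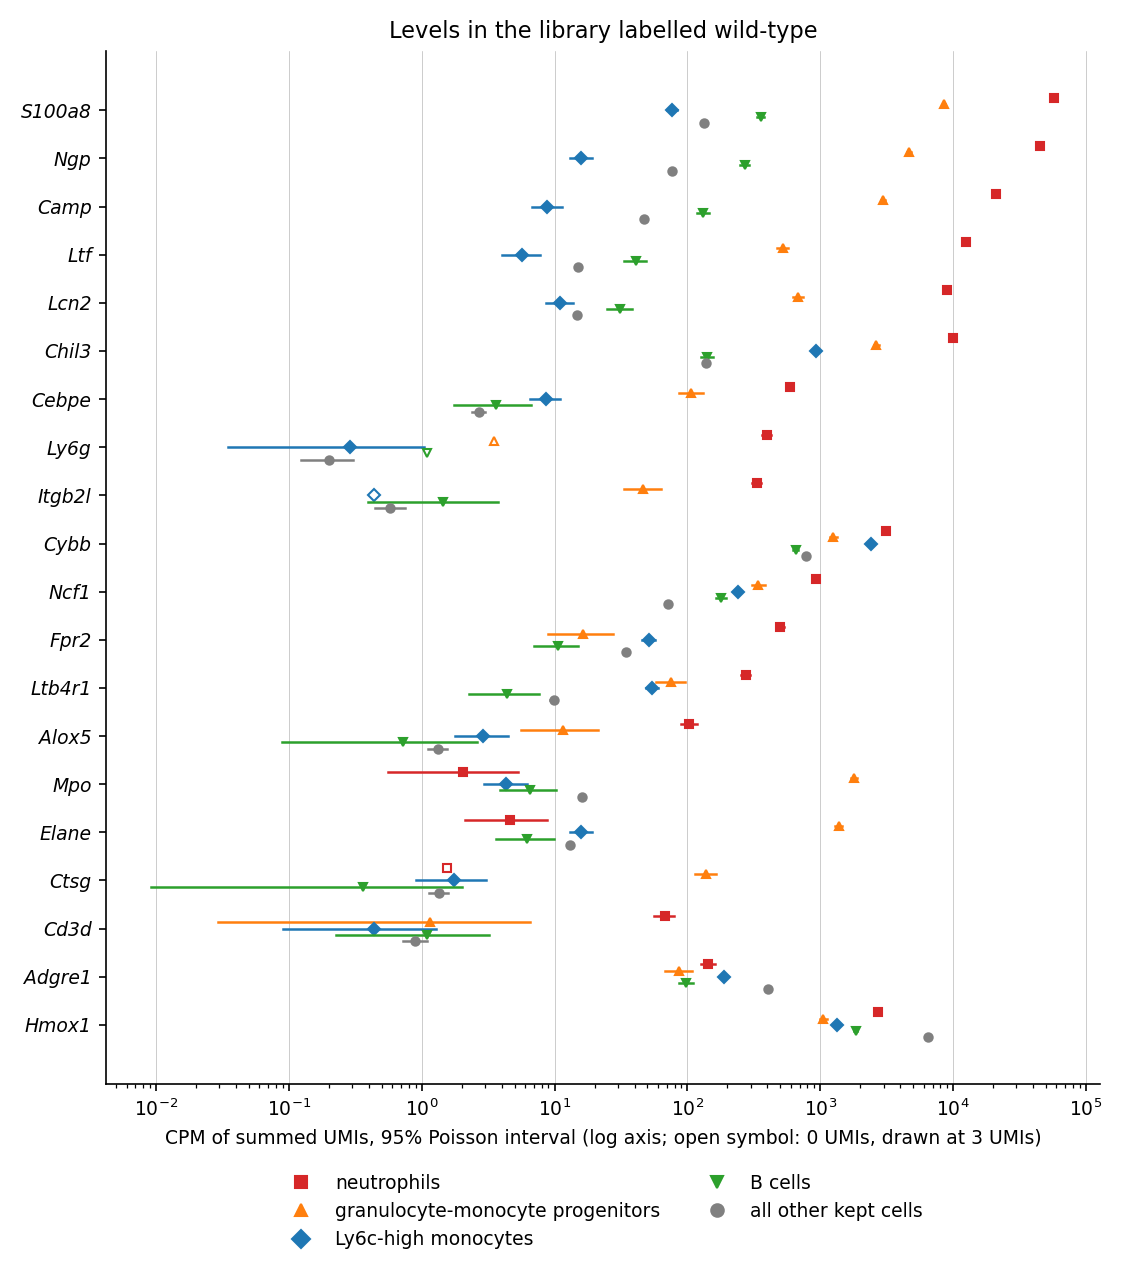
Level of 20 genes (rows) as CPM of summed UMIs (x axis, log scale) in 5 sets of cells of the library labelled wild-type, with exact 95% Poisson intervals; symbols stand for sets, and an open symbol marks 0 UMIs and is drawn at the level of 3 UMIs. Red squares lie to the right of the other sets for S100a8 down to Alox5, by 841-fold for Ltf and 1981-fold for Ly6g against all other kept cells and by 1.30-fold for Cybb against monocytes, and to the left of the progenitors for Mpo, Elane and Ctsg. Ltf, Ly6g, Mpo and Elane are genes of the rule, so their differences are given as a description.

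Because UMIs of a transcript can also be found in barcodes of cells that do not make it, each cell was also thinned to 1000 UMIs and the share with a UMI compared with that in B cells. Of 265 neutrophils deep enough (7 were left out), 40% (34.1 to 46.2%) held a UMI of Cebpe, against 0.264% (0.0319 to 0.949%) of 759 B cells (5 were left out). Without thinning the shares were 80.5 and 0.262% of all cells, and the median depths of the cells thinned had been 6411 and 2713 UMIs. Ly6g was found in 36.6% of thinned neutrophils and in 0 of 759 B cells, which allows a share of up to 0.395%. Camp was in 92.8% against 1.05%, and S100a8 in 99.2% against 4.87%. Ly6g, Camp and S100a8 are rule genes, so the choice of cells built in their excess over B cells, and they are given as a description. Cebpe lies outside the rule.

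Transcripts of red pulp macrophages, the cells that the beads were meant to enrich, did not differ from B cells as Cebpe did. Adgre1, which encodes F4/80, was found in 10.2% (6.82 to 14.5%) of thinned neutrophils and 8.83% (6.91 to 11.1%) of B cells. Vcam1, an adhesion molecule of these macrophages, was in 55.8% and 55.6%, and C1qa, a chain of complement C1q, in 38.5% and 37.9%. Hmox1, the heme-degrading enzyme heme oxygenase 1, was in 75.5% (69.8 to 80.5%) and 74.3% (71.0 to 77.4%). The neutrophils' shares of these 4 genes thus lay within the counting error of those in B cells and were not read as expression. Whether they came from free RNA or from mixed barcodes was not tested. B cells were taken only with at most 10 UMIs of C1qa, C1qb and C1qc, a limit that the neutrophils did not have. The B-cell values of C1qa, and of other macrophage transcripts found with it, are thus held down in part by that choice. As levels, all 10 macrophage markers summed to 8937 CPM in the neutrophils, 5222 in B cells and 21880 in the other kept cells, with Hmox1 the most abundant in each and none at 0. None of the 10 measured genes of heme and iron handling and none of 8 targets of the stress-response factor NRF2 was 4-fold higher or lower in the neutrophils than in the other kept cells, nor were those measured against B cells (9 and 5), where 3.76% of 6481 genes were higher in the neutrophils and 5.59% lower.

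**Figure D3:**
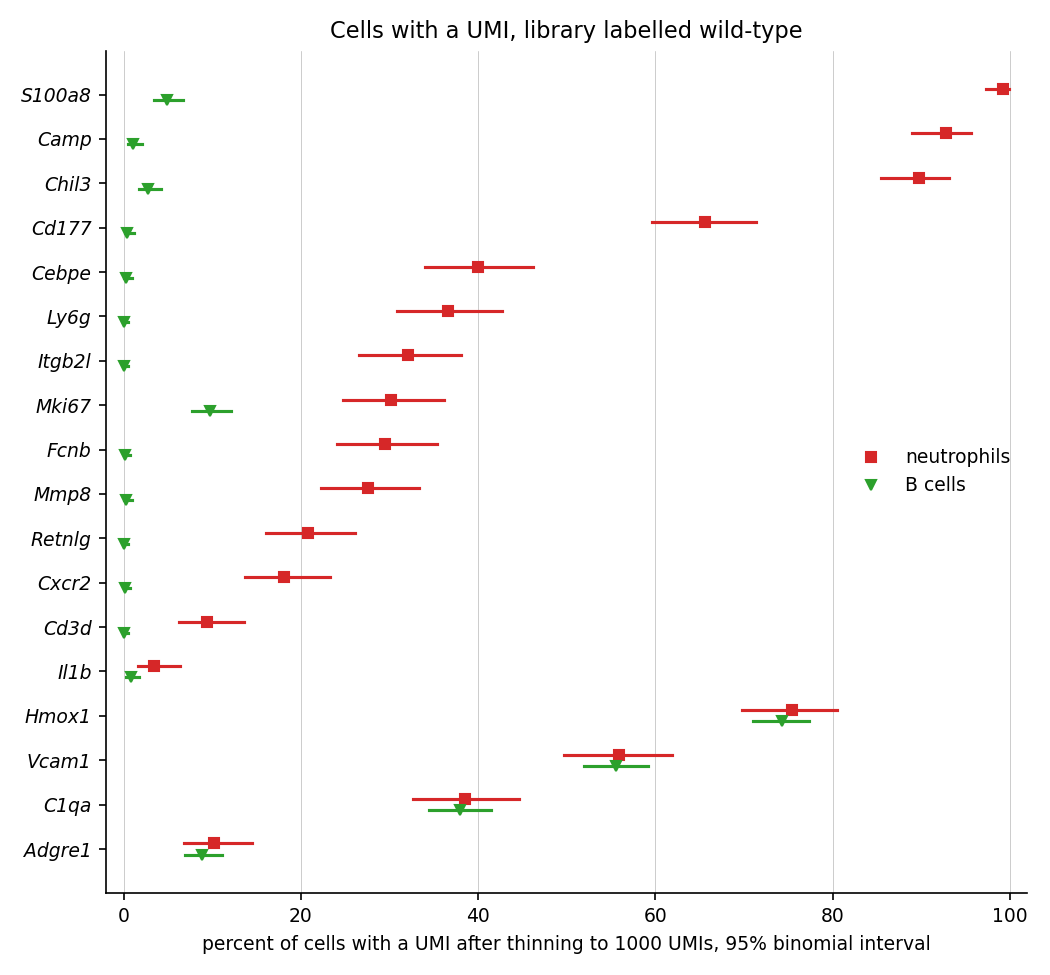
Percent of cells with a UMI of each gene (rows) after thinning every cell to 1000 UMIs, in 265 neutrophils (red squares) and 759 B cells (green triangles) of the library labelled wild-type, with exact 95% binomial intervals. The neutrophils stand far to the right for Cebpe (40 against 0.264%), which lies outside the rule, whereas the intervals overlap for Hmox1, Vcam1, C1qa and Adgre1. The neutrophils also stand far to the right for the rule gene Camp (92.8 against 1.05%), as the choice of cells built in. B cells were chosen with at most 10 UMIs of C1qa, C1qb and C1qc, and neutrophils had no such limit.

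Summed over each list, markers of other cell types were lower in the neutrophils than in the other kept cells, the 9 erythroid ones included, except for the 7 of T and NK cells. The 6 B-cell markers summed to 203 CPM (Ighm the most abundant, none at 0) against 13854 in B cells, and the 4 platelet markers to 4.11 CPM, with Gp9 at 0. The 6 markers of Ly6c-high monocytes summed to 1125 CPM, of which Ly6c2, shared by immature neutrophils, gave 718. The 8 markers of eosinophils, basophils and mast cells summed to 270 CPM, nearly all of it Ccr3, with Epx, Prg2, Mcpt8, Cpa3, Gata2 and Fcer1a at 0. The 9 erythroid markers summed to 6346 CPM (Hba-a1 the most abundant) against 10303 in B cells. Among the 272 neutrophils, 83 were over at least 1 limit for transcripts of macrophages (45 cells), red cell precursors (45) or monocytes (9), and are called mixed below. Scrublet marked 47 (17.3%) as doublets among the highest-scoring 10% of the library, its automatic threshold having marked none.

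Cd3d, which encodes the δ chain of the T-cell receptor complex (chr9:44981786-44987339, plus strand, GRCm38), stood at 67.3 CPM (56.3 to 79.9) with 131 UMIs in 89 of the 272 neutrophils (32.7%), against 0.892 CPM in the other kept cells and 1.09 in B cells. Its partners Cd3e and Cd3g had 1 and 0 UMIs in the neutrophils, Cd247 had 0, and the receptor constant genes Trac, Trbc1 and Trbc2 had 1, 1 and 4. No cell held more than 4 UMIs of Cd3d. After thinning it was found in 9.43% (6.20 to 13.6%) of neutrophils and in 0 of 759 B cells, which allows 0.395%. Without the mixed barcodes its level was 81.3 CPM (65.8 to 99.2) over 189 cells.

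To see how the neutrophils differed among themselves, they were ordered by the share of their UMIs in Camp, Ngp and Ltf, which ran from 0 to 15.3% (median 9.24%), and divided into a low, a middle and a high group of 91, 91 and 90 cells. Of 3164 genes with at least 100 UMIs over the neutrophils, 159 (5.03%) were at least 2-fold higher in the high group than in the low group and 582 (18.4%) lower, with a median log2 ratio of −0.21. Of the 6 other secondary granule genes measured 4 were higher (Lcn2, Cd177, Chil3 and Pglyrp1), while Hp stood at 960.0 in the high against 483 CPM in the low group and Olfm4 at 89.3 against 178. Without mixed barcodes 31 genes were higher and 402 lower, and with the cells split at the median 45 were higher and 431 lower. Cebpe stood at 247, 729 and 882 CPM from the low to the high group. It was among the 10 largest rises in ratio, with Lbp, Arsb, 1700020L24Rik, Igfbp4, Kif20b, Mlst8, Palm, Tmem216 and Pxylp1.

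The low group was mixed in its make-up. It held 57 mixed barcodes and 38 marked doublets, against 8 and 0 in the high group, and its median depth was 7702 against 5111 UMIs. Its 10 macrophage markers summed to 15212 against 3287 CPM (10 of 10 at least 2-fold lower in the high group, Hmox1 the most abundant), its erythroid markers to 10158 against 2744 CPM (7 of 7 measured lower, Hba-a1 the most abundant), and its monocyte markers to 1365 against 986 CPM (4 of 5 measured lower, Ly6c2 the most abundant, with F13a1 and Vcan at 0 in the high group). The B-cell markers of the low group summed to 362 against 24.2 CPM (1 of 1 measured, Ighm, lower in the high group). Its dendritic-cell markers summed to 473 against 65.1 CPM (1 of 1 measured, H2-Ab1, lower in the high group). The part of these other cells' transcripts in the low values of the granule genes was not tested. The 10 largest falls towards the high group were Ccr2, Il1b, S100a4, Srgn, Tbc1d4, Fn1, Ahnak, F13a1, St8sia4 and Tpm4, of which Ccr2, Fn1 and F13a1 are monocyte markers. Of the UMIs of Ccr2, Il1b, Fn1 and F13a1 in the neutrophils the low group held 179 of 203, 122 of 126, 113 of 118 and 98 of 105, so that these passed the minimum of 100 UMIs only through the group where they are high. The same holds for Srgn, found in 15 middle-group cells with at most 2 UMIs and 3 high-group cells with at most 1. Without mixed barcodes, which were marked in part by their Fn1 UMIs, the log2 difference of Fn1 turned from −4.77 to 0.23. It then rested on 3 UMIs in the high and 0 in the low group, so that no direction can be read from it. The log2 difference of Tbc1d4 was −4.87 here and turned to 2.00 when non-cycling cells were compared with the granule-poor cells described below.

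These groups did not follow the gaps in the data, so 3 ranges were drawn after the values had been seen. A granule-poor range of 24 cells had under 0.2% of UMIs in Camp, Ngp and Ltf, with no neutrophil between 0.1 and 0.3%. The others were divided at 30 UMIs of 16 cell-cycle genes per 10000 into a cycling range of 95 cells and a non-cycling range of 153, with 16 cells between 20 and 40. The ranges are cuts in per-cell shares and not cell types. Their median depths were 2059, 9850 and 4790 UMIs, and 12, 29 and 42 of their cells were mixed.

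Transcripts of cell division were common among these neutrophils. Mki67, a marker of dividing cells, was found in 139 of the 272 (51.1%), and after thinning in 30.2% (24.7 to 36.1%), against 9.75% (7.73 to 12.1%) of B cells, 14.1% (12.0 to 16.3%) of monocytes and 37.9% (26.2 to 50.7%) of progenitors. The level of the 16 cell-cycle genes summed to 3432 CPM in the neutrophils and 3204 in the other kept cells, and none of them was 4-fold higher or lower. Across the 272 cells the share of cell-cycle UMIs was inversely related to that of Mmp8, Mmp9 and Retnlg (Spearman's rho −0.51). These cells share 1 library, and both shares were also related to depth (rho 0.54 and −0.49), so the value is a description only.

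Secondary granule genes were found in both cycling and non-cycling neutrophils, as the rule and the cut on Camp, Ngp and Ltf require of some of them, and those outside the rule differed to varying degrees. Of 3149 genes, without the genes that drew the ranges, 254 (8.07%) were at least 2-fold higher in the cycling range and 143 (4.54%) lower. The rule genes, given as a description, stood at 24580 and 19818 CPM in cycling and non-cycling cells for Camp, 12738 and 13721 for Ltf, and 8895 and 9935 for Lcn2. Outside the rule, Chil3 stood at 12886 against 8070 CPM, Cd177 at 1363 against 1248, Pglyrp1 at 1628 against 1816, Hp at 781 against 695, and Olfm4, at least 2-fold lower, at 91.97 against 272. Cebpe stood at 717 against 510.5 CPM, and Fcnb (ficolin B, of immature neutrophils, named after its values were seen) at 879 against 318. The 10 largest rises in the cycling range (Hist1h3c, Ska1, Esco2, Hist1h1d, Prc1, Dlgap5, Ccnf, Foxm1, Ncapg and Cdca3) were themselves genes of division or histones, as the cut would give.

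The 3 largest falls in the cycling range were those of 3 rule genes, given as a description. They were Mmp8, at 64.1 in cycling against 1511 CPM in non-cycling cells, Retnlg, at 75.4 against 882, and Mmp9, at 88.9 against 946. Mmp25, which the rule did not use, stood at 99.2 against 187 CPM, a difference under 2-fold. Mmp8 was found in 5 of 95 cycling and 78 of 153 non-cycling cells. The remaining falls were Ccnd1, Slfn1, Map4k4, Bmx, S100a6, Tpm4 and the B-cell marker Ighm. Fpr2 stood at 219 against 829.6 CPM and Ifitm6 at 469 against 1747, and the rule genes Ly6g and Cxcr2 at 211 against 638 and 87.8 against 221. Cd3d stood at 29.97 CPM in cycling cells and 112 CPM in non-cycling cells, and after thinning was in 1.05% (0.0266 to 5.73%) and 17.2% (11.6 to 24.2%). Non-cycling cells held more of the macrophage markers as well, 10559 against 6442 CPM (0 of 10 were 2-fold different), and fewer of the erythroid ones, 4188 against 7362 CPM (3 of 7 measured 2-fold higher in cycling cells). Monocyte markers summed to 1222 CPM in non-cycling and 892 in cycling cells, with Ccr2, Fn1 and F13a1 of 5 measured at least 2-fold lower in cycling cells and Ly6c2 the most abundant. The dendritic-cell list summed to 487 against 121 CPM, nearly all of it H2-Ab1, at 412.5 against 106, with Xcr1 at 0 in non-cycling and Clec9a at 0 in cycling cells. The B-cell markers summed to 304 CPM in non-cycling and 98.2 CPM in cycling cells (1 of 1 measured, Ighm, at least 2-fold lower in cycling cells). The part of all these markers' cells in the differences was not tested. Without mixed barcodes 266 genes were higher and 190 lower in 66 cycling against 111 non-cycling cells. Marked doublets were 20 of the 95 cycling and 24 of the 153 non-cycling cells. Without them 261 genes were higher and 216 lower in 75 against 129 cells.

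**Figure D4:**
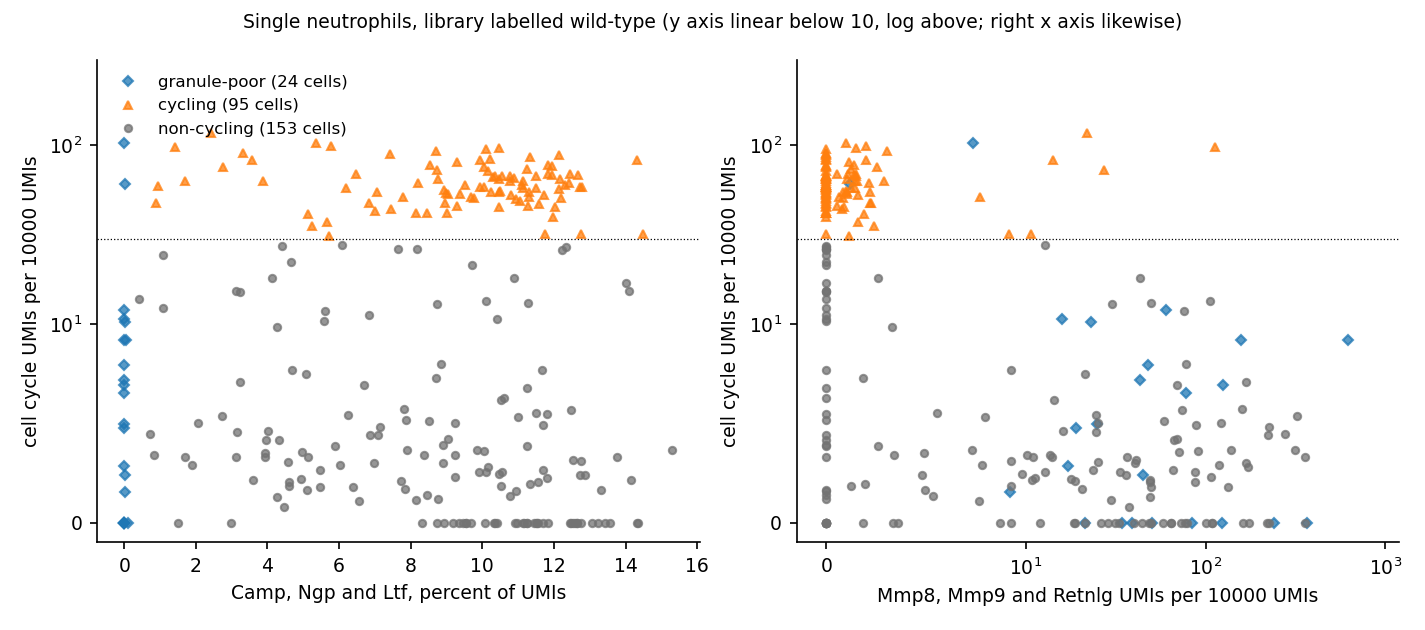
Each point is 1 of the 272 neutrophils of the library labelled wild-type. Left, cell-cycle UMIs per 10000 (y axis) against the percent of UMIs in Camp, Ngp and Ltf (x axis). Right, the same y axis against UMIs of Mmp8, Mmp9 and Retnlg per 10000; axes scaled per 10000 are linear below 10 and logarithmic above, and the dotted line marks 30. Blue diamonds (24 granule-poor cells) stand at the left edge of the left plot, and orange triangles (95 cycling cells) crowd at the left of the right plot, where many of the 153 non-cycling cells (grey) reach far to the right.

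The granule-poor neutrophils, cut by their low Camp, Ngp and Ltf, held low levels of the other secondary granule genes and higher levels of Il1b, Csf3r and Ccl6. Without Camp, Ngp and Ltf a cell met the rule only through 3 of its 6 other genes (Lcn2, Mmp8, Mmp9, Retnlg, Ly6g and Cxcr2), so that the presence of these in the range is in part a condition of membership. Camp, Ngp and Ltf had 2, 4 and 2 UMIs among 100075, Cebpe and Fcnb had 0, and Ly6g had 4. S100a8 stood at 16987 against 58274 CPM in the non-cycling range. Against that range 398 of 3149 genes (12.6%) were at least 2-fold higher and 369 (11.7%) lower. Of 6 other secondary granule genes 5 were lower, among them Chil3 at 389.7 against 8070 CPM and the rule gene Lcn2, found in 11 of the 24 cells, at 419.7 against 9935 CPM, while Hp stood at 399.7 against 695.

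Il1b (interleukin 1β) stood at 1189 CPM in the granule-poor against 5.70 CPM in the non-cycling range. The granule-poor range held 119 of its 126 UMIs in neutrophils, so that it passed the minimum of 100 UMIs only through the range where it is high, and its place among the largest rises is in part set by that filter. Of the cells, 15 of the 24 cells held a UMI of it, against 5 of 153 non-cycling and 2 of 95 cycling cells. Ccl6, a CC chemokine, stood at 1099 against 103 CPM, and Srgn, the granule proteoglycan serglycin, at 749 against 45.6. These 3, with Clec7a, the β-glucan receptor (719 against 95.7 CPM), and the transcription factor gene Junb (429.7 against 60.4), were among the 20 largest rises. The granule-poor range held 75 UMIs of Srgn, so that its passing of the minimum of 100 UMIs also rested largely on this range. The receptor gene Csf3r, which the rule did not use, stood at 719 against 117 CPM and was in 21 of the 24 cells. The chemoattractant receptor genes Ccr1 and Ptafr stood at 339.7 and 429.7 against 88.9 and 120.8 CPM. Of the rule genes, given as a description, Retnlg stood at 4117 against 882 CPM (in 22 of the 24 cells) and Cxcr2 at 579.6 against 221 (in 20), while Mmp9 stood at 849 against 946 CPM, Mmp8 at 589.6 against 1511. The formyl peptide receptor gene Fpr2 stood at 339.7 against 829.6 CPM. Stfa2l1 had 16 UMIs in 4 of the 24 granule-poor cells, up to 6 in 1 cell, and 0 in the other ranges, at least 46.8-fold higher than in non-cycling cells against a limit of 3 UMIs over that range. Of its 16 UMIs 8 were left without doublets, and likewise 8 without mixed barcodes. Clec4d, a C-type lectin gene, stood at 349.7 against 10.3 CPM. Both were named after their values were seen.

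The granule-poor cells were the shallowest by median and also held RNA of other cells. Their depth was uneven, since 18 of the 24 held 830 to 4340 UMIs and the 6 deepest held 6520, 7837, 8440, 12221, 16606 and 16986, which is most of the 100075 UMIs behind the summed levels. These 6 held 18 to 322 UMIs of S100a8 and S100a9, and 3 of them were marked as doublets. Their macrophage markers summed to 18836 against 10559 CPM in the non-cycling range (1 of 10, Adgre1, at least 2-fold higher, Hmox1 the most abundant, none at 0), and their erythroid markers to 15448 against 4188 CPM (7 of 7 measured higher, Hba-a1 the most abundant). The monocyte markers summed to 2528 against 1222 CPM (4 of 5 measured higher, Ly6c2 the most abundant). The 20 largest rises also held the erythroid genes Hemgn, Rhd and Tal1 and genes of division such as Hist1h1d. Of the 24 cells 2 were over the cell-cycle limit that no non-cycling cell passes. Among the 12 granule-poor cells that were not mixed, Il1b stood at 3496 CPM (60 UMIs), Retnlg at 15148, Cxcr2 at 1981, Csf3r at 1806 and Ccl6 at 3088, all above their level in the 24, and Hmox1 stood at 1923 against 2003 in the 111 non-cycling cells that were not mixed. The level of S100a8 was more alike among cells that were not mixed, at 54941 in granule-poor against 71360 CPM in non-cycling cells, as was that of Mmp8, at 1690 against 1763. Mmp9 turned its direction, standing at 2389 in granule-poor against 1094 CPM in non-cycling cells that were not mixed. In the 21 granule-poor cells that were not marked as doublets Il1b stood at 1698 and Retnlg at 5965 CPM.

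**Figure D5:**
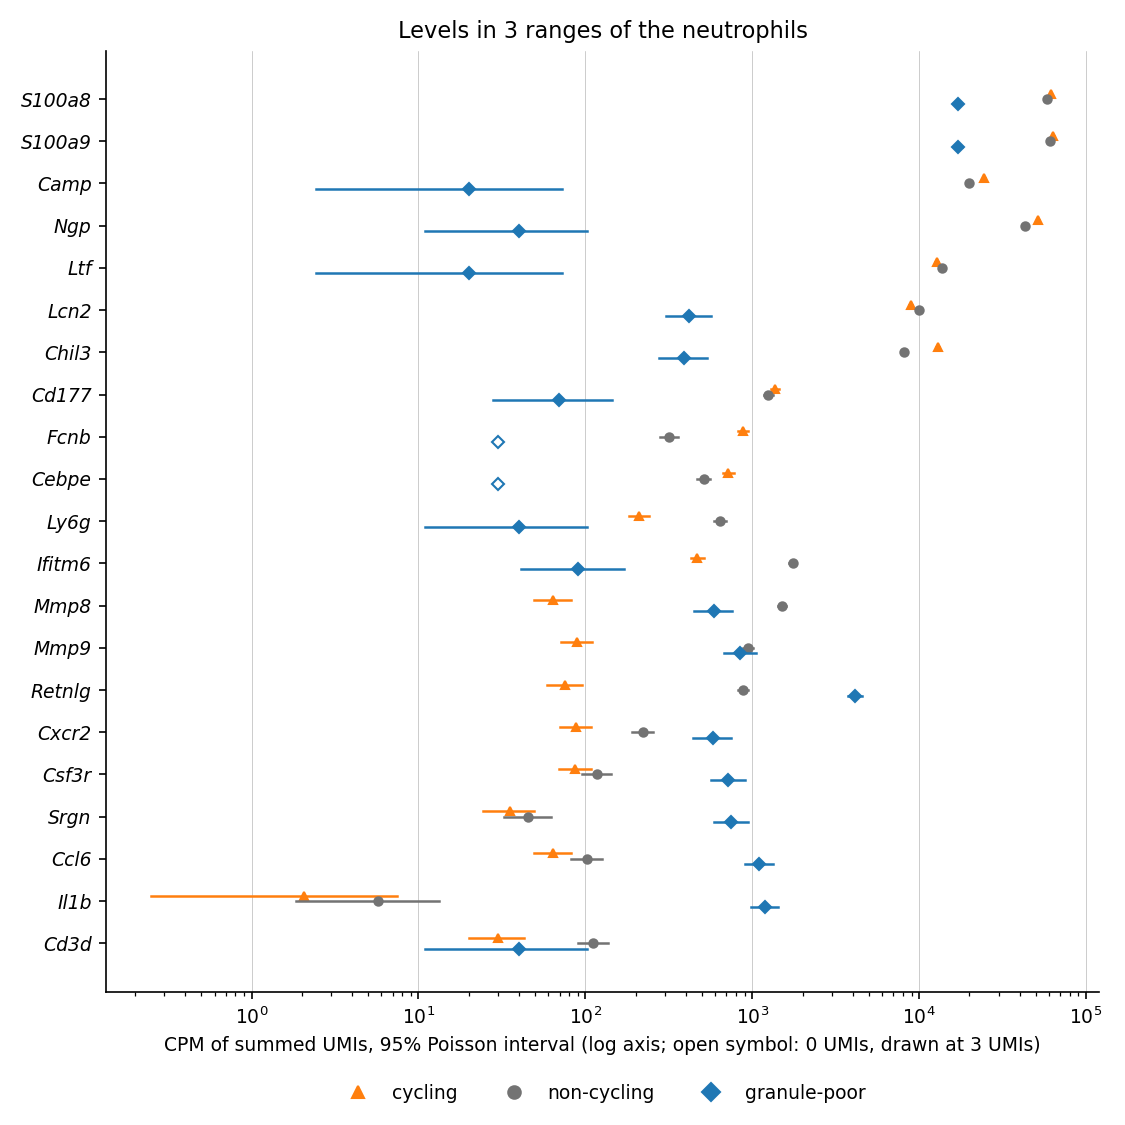
Level of 21 genes (rows) as CPM of summed UMIs (x axis, log scale) in the cycling (orange triangles), non-cycling (grey circles) and granule-poor (blue diamonds) ranges of the neutrophils, with exact 95% Poisson intervals; an open symbol marks 0 UMIs and is drawn at the level of 3 UMIs. Granule-poor cells lie to the left for Camp down to Ifitm6 and to the right for Retnlg, Cxcr2, Csf3r, Srgn, Ccl6 and Il1b, and cycling cells lie to the left of the others for Mmp8, Mmp9 and Retnlg.

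The library labelled SCD held 10 neutrophils with 1467 to 7943 UMIs each (median 4632.5) and 46655 in all. In 9 of them no UMI of Camp, Ngp or Ltf was found, so they met the rule through other genes, and they were granule-poor by the limit above, as were 24 of the 272 of the library labelled wild-type. The tenth cell held 883 UMIs of S100a8 and S100a9, 13.6% of its UMIs in Camp, Ngp and Ltf, 7 UMIs of Ly6g and 6 of Cebpe, and no cell-cycle UMI. It was the only one of the 10 with Ly6g or Cebpe.

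In the 9 granule-poor cells S100a8 and S100a9 took 19 to 179 UMIs. Cxcr2 was found in all 9 with 3 to 12 UMIs, Il1b in 8 with up to 19, and Retnlg in 8 with up to 14. Their counts of S100a8 and S100a9, from largest to smallest, were 179, 137, 132, 93, 41, 27, 23, 21 and 19. Of these 9 cells 5 held exactly 3 of the 9 genes of the rule, and a requirement of 4 genes would leave 5 neutrophils in this library and 263 in the other. Transcripts of other cells were present here too. Cd79a, Cd79b and Ms4a1 had 8 and 21 UMIs in the cells with 179 and 137 UMIs of S100a8 and S100a9, and the dendritic-cell marker list summed to 3408 CPM, of which H2-Ab1, an MHC class II gene also made by B cells, gave 3065, with Xcr1 and Ccr7 at 0. Macrophage markers summed to 6559 CPM over the 10 cells against 2552 in the B cells of this library, with Vcam1 the most abundant and none at 0, and 1 of the 10 was mixed. The B-cell value is held down in part, since B cells were chosen with few UMIs of C1qa, C1qb and C1qc. Monocyte markers summed to 750 CPM, with Csf1r the most abundant at 536 and Fn1 at 0. The part of such mixtures in the 10 cells was not tested. As neutrophils the 9 thus rest on S100a8, S100a9, Cxcr2, Retnlg and the remaining genes of the rule, in the absence of Ly6g, Camp, Ngp and Ltf. Cell-cycle genes took 0 to 7.31 UMIs per 10000 in the 10 cells, so that none was in the cycling range.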

How the data were processed

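Spleen cells of 1 mouse per genotype were enriched with anti-F4/80 beads, and the authors deposited 1 matrix of raw UMI counts per library, with 2 libraries in all. Per the labels they were made with Cell Ranger 4.0.0 and GRCm38.p6, and the file headers give software version 3.1.0. No further normalisation had been applied to the deposited counts. Kept barcodes had 500 to 5000 genes and under 15% mitochondrial UMIs. Members and gene lists were chosen with earlier results of these data known.

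UMIs were summed over the cells of a set and divided by their total (CPM, with exact 95% Poisson intervals). Shares have exact binomial (Clopper-Pearson) intervals, and where no UMI was found the limit given is that of 3 UMIs. With 1 library per group no test was made. Genes with at least 100 UMIs were compared. These UMIs were counted over both sets against other cells, and over all neutrophils for comparisons among neutrophils. A gene was counted at 4-fold against other cells or 2-fold among neutrophils. Depth per kept neutrophil was 824 to 20788 UMIs in the library labelled wild-type. Genes were named by the rule, by the lists, by the 15 highest levels, by the 20 largest and 10 smallest ratios, and by the 10 largest rises and falls in the granule-gene order, and the ranges and their genes were added after the values had been seen. Mixed barcodes had over 50 macrophage (C1qa, C1qb, C1qc, Vcam1), 100 erythroid (Hba-a1, Car2, Slc4a1) or 10 monocyte (Fn1, F13a1, Ccr2) UMIs per 10000.

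B reference cells held at least 4 UMIs and at least 2 genes of a B-cell list with Cd79a, Cd79b and Ms4a1. B reference cells and reference monocytes held at most 10 UMIs of C1qa, C1qb and C1qc. Some genes of the lists are counted but not reported here by name. Reference progenitors held at least 10 UMIs and 2 genes of Mpo, Elane and Prtn3. Reference monocytes held at least 5 UMIs and 3 genes of their list. Doublets were scored with Scrublet in scanpy 1.11.5. In the library labelled SCD its own threshold gave 1679 doublets (13.7%). In the other it gave 0, and the highest-scoring 10% were used there. Doublets were left in, and removed in an alternative. Code ran in Python 3.11.15 with scipy 1.17.1, and the steps were tested on simulated data. There were 21 alternatives planned and 5 added after the data had been seen.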

Additional observations from a re-analysis of the deposited data

Results flagged for a closer look

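In the library labelled wild-type, 21 barcodes outside the cell filter met the gene parts of the neutrophil rule, and no comparison above uses them. Of these, 18 held over 5000 genes, with 18918 to 44229 UMIs (median 25167.5), and 3 held 15% or more mitochondrial UMIs, with a median of 4637. The 18 deep barcodes had a median of 856 UMIs of S100a8 and S100a9, 2.21% of UMIs in Camp, Ngp and Ltf, and 39.5 cell-cycle UMIs per 10000, against 760.5, 9.24% and 6.91 in the 272 neutrophils. Among them 11 were over the cycling limit and 16 were mixed. Their Mki67 stood at 888 CPM (804 to 978), against 718 (680 to 756) in the neutrophils, Camp at 8019 against 21168, Cebpe at 261 against 587 and C1qa at 1581 against 864. The upper limit of 5000 genes thus left out barcodes that held transcripts of granulocytes, of division and of macrophages together. Which cells the division transcripts came from, and whether the barcodes were single cells, was not tested.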

How the results depend on the processing

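No paired analysis was possible because each genotype had 1 library. The number of neutrophils kept within 1.5 times of its value under 21 of 22 settings tried over both libraries, and the exception was 5 in place of 10 in the library labelled SCD when 4 of the 9 genes were required. The 594 genes lower than in the other kept cells became 1160 with means of per-cell values, 1194 without doublets and 1387 without mixed barcodes. They were 362 against B cells, 331 against monocytes and 86 against progenitors, and the 325 higher genes were 167 against monocytes and 102 against progenitors. Fewer genes were measured against these smaller sets. In the granule-gene order the 159 higher genes became 45 when the cells were split at the median, 101 without doublets, 31 without mixed barcodes, 87 without the granule-poor cells and 369 when non-cycling were compared with granule-poor cells. The log2 difference turned to 0.23 for Fn1 without mixed barcodes, from −4.77, where it rested on 3 UMIs against 0. Fn1 was among the genes that marked mixed barcodes, so that setting removes its UMIs by construction. With non-cycling against granule-poor cells the difference turned to 2.00 for Tbc1d4, from −4.87, and 1.36 for Mmp8, from −1.30. Thinned to 500 UMIs, the share with a UMI was 21.7% for Cebpe, 21.3% for Ly6g and 4.41% for Cd3d, which fewer UMIs per cell lower by construction. The cause of the other changes was not tested. For 53 named genes under 8 settings, the level against the other kept cells moved beyond its counting interval in 333 cases and did not in 91. No gene past 4-fold turned its direction, whereas Mki67, Prtn3, Adgre1, Hmox1, Fth1, Hba-a1, Actb, Lyz2, Rsad2 and Top2a, all under 4-fold, did so in at least 1 setting, mostly against other comparison cells. With 1 mouse per genotype, counting intervals leave out variation between mice, and in the 10 neutrophils of the library labelled SCD 1 UMI was 21.4 CPM.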

Other observations

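Among the neutrophils of the library labelled wild-type, Cd4 gave 20 UMIs in 17 cells (10.3 CPM, 6.28 to 15.9), against 43.4 CPM in the other kept cells and 18.9 in B cells, and Cd8a gave none. Trbc2 gave 4 UMIs in 1 cell (2.06 CPM), against 1.76 CPM in the other kept cells and 0 in B cells. Cd4 was looked up after the value of Cd3d had been seen. In the library labelled SCD, Cd3d gave 3 UMIs in the 10 neutrophils (64.3 CPM, 13.3 to 187.9).

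Msrb1, which encodes a methionine sulfoxide reductase, and S100a6, a calcium-binding protein gene, were both named after their values were seen. Msrb1 stood at 1099 CPM in granule-poor, 495 in non-cycling and 384 in cycling neutrophils, and S100a6 at 2548, 1019 and 213. Without mixed barcodes the granule-poor and non-cycling levels were 2855 and 543 for Msrb1 and 7283 and 1125 for S100a6.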
